A study of Mus musculus with 16 samples.

Results

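The interaction of palmitate and IL-1β was measured in cultured fibroblasts of the mouse gum (mGF, murine gingival fibroblasts) as the part of the response to both agents that the responses to each agent alone do not give. All 16 libraries entered as a 2 by 2 design. All 56941 genes of the count table were members, and 16306 had enough counts to be tested. The wild-type (WT) cells were grown out of gingiva from around an upper molar of C57Bl6 mice 3 to 6 months old and were used between passages 2 and 8. They received palmitate (200 μM, complexed to BSA), IL-1β (1 ng/mL), the combination palmitate + IL-1β, or BSA alone as the control for 24 h, with 4 libraries per condition. BSA is the albumin that carries the fatty acid, so every condition with palmitate also held it. The treatment label of the IL-1β libraries names no BSA. For other assays of these cells the paper describes BSA as the vehicle, given with or without IL-1β. Nothing in the sources used here says that the libraries of a condition came from separate mice or cultures, so p-values measure only the spread between these libraries.

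IL-1β binds its receptor on fibroblasts and, through MyD88 and the IRAK kinases, releases the transcription factor NF-κB, which switches on chemokines, adhesion molecules and its own inhibitors. Palmitate, a common saturated fatty acid, can be oxidised, stored in lipid droplets or built into membranes, and an excess of it is known to set off inflammatory and stress signaling. NRF2, encoded by Nfe2l2, is the transcription factor of the oxidative stress response and switches on genes of glutathione, thioredoxin and heme metabolism.

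The level with both agents was compared with 2 expectations, because the scale decides what no interaction means. The log2 interaction is (both minus IL-1β) minus (palmitate minus BSA) on the log2 scale, and it is 0 when the fold changes of the agents multiply. The departure from addition is the level with both agents minus the additive expectation, in CPM, the counts scaled to a common TMM-adjusted library size, and it is 0 when the increments of the agents add. The additive expectation is IL-1β plus palmitate minus BSA, taken from fitted condition means, whereas levels below are observed means ± SD (n = 4). A gene that each agent raises and whose increments add exactly has a negative log2 interaction by arithmetic alone. Likewise, a gene that each agent raises, or each lowers, and whose fold changes multiply exactly lies above the sum. The single-agent and BSA libraries enter both measures, so the values of a gene on the 2 scales are not independent of each other.

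Gene totals ran from 21234789 to 92752515 counts per library, the highest in palmitate replicate 10. A level of 3 counts, below which a gene was taken as at the floor, was 0.0331 to 0.146 CPM and covers counting error only. Of the cell type markers, all 5 endothelial, 7 of 9 leukocyte and 6 of 7 epithelial genes averaged under 1 CPM, while all 10 fibroblast genes were above it. The summed fibroblast markers were at 44402 to 45914 CPM with BSA, 45338 to 46094 with IL-1β, 39732 to 42528 with palmitate and 38724 to 40919 with both. The summed epithelial markers were at 13.1 to 15.7, 11.1 to 12.9, 6.62 to 7.38 and 6.01 to 6.56 CPM in the same order. The part of these shifts in the results was not tested, and in bulk RNA fewer cells of a type and less RNA per cell cannot be told apart.

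Where an interaction was called, the agents together mostly gave less than the product of their fold changes. Of the 16306 genes tested, 324 (1.99%) had a log2 interaction at a Benjamini-Hochberg adjusted p under 0.05 in the quasi-likelihood fit of edgeR. It was negative in 298 genes (1.83%) and positive in 26 (0.159%). Against addition, 158 genes (0.969%) departed, 112 of them below the expectation (0.687%) and 46 above it (0.282%). With upper-quartile normalization the split against addition was 98 below and 86 above, and on the log2 scale 239 negative and 46 positive. Over all tested genes the median log2 interaction was 0 and the median departure 0.67% of the expectation.

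The calls on the 2 scales fell on partly different genes. Of the 298 genes with a negative log2 interaction, 108 were also below addition, 185 had no departure called and 5 were above it. These 5 were Cxcl1, Srxn1, Slc7a11, Txnrd1 and Gm20658, the last named after its values were seen. Of the 26 genes with a positive interaction, 16 were above addition and 10 had no departure called. A further 25 genes exceeded the sum, and 4 fell below it, without a call on the log2 scale.

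**Figure D1:**
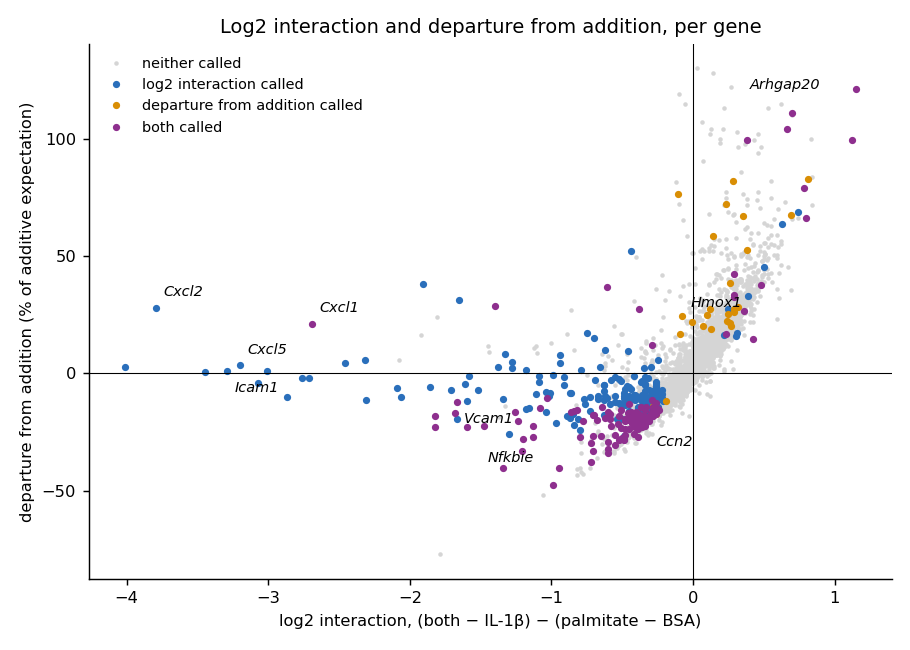
Each point is a gene with an average log2 CPM of at least 1, placed by its log2 interaction (horizontal axis) and by the departure of the level with both agents from addition in percent of the additive expectation (vertical axis), coloured by which test called it at an adjusted p under 0.05. Of 11828 such genes, 25 lie outside the axes, 2 of them called. Cxcl5 and Icam1 lie at -3.20 and -3.29 on the log2 axis but at 3.45% and 0.906% on the other, and Hmox1 at -0.08 and 24.4%.

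Most called interactions were in genes that each agent raised alone. Palmitate alone raised 3228 genes (19.8%) and lowered 2855 (17.5%), and IL-1β alone raised 1654 (10.1%) and lowered 810 (4.97%). Each agent alone raised 1187 genes, of which 253 had a negative log2 interaction and 3 a positive one, while 73 were below addition and 20 above. These classes share libraries with the interaction, so their counts are a description. Of the 2014 genes that palmitate raised with no call for IL-1β, 20 had a negative and 2 a positive interaction. Among 491 genes that each agent lowered, 2 were negative and 4 positive, and 11 were above addition. Of the 9518 genes with a call for neither agent alone, 4 had a negative and 1 a positive interaction.

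In the 253 genes raised by each agent with a negative interaction, the level with both agents had a median of 88.8% of the sum (quartiles 82.6% and 93.4%) and of 69.3% of the product. A negative call needs a level under the product, so these shares are in part fixed by the choice of genes. Over all 1187 genes that each agent raised alone, the median was 95% of the sum. Palmitate alone stood above IL-1β alone in 228 of the 253. Adding IL-1β to palmitate raised 64 of these genes and lowered 10, and in 179 no difference was called, while over all tested genes it raised 931 (5.71%) and lowered 668 (4.1%).

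Chemokines that draw neutrophils had among the most negative log2 terms, with levels near or above the sum. Of 5 tested members of this list, 4 had a negative interaction (Cxcl1, Cxcl2, Cxcl3 and Cxcl5) and 1, Cxcl1, was above addition. The shares over all tested genes were 1.83% and 0.282%. Cxcl5, on chromosome 5 from 90907186 to 90909483 (GRCm39), encodes a ligand of the neutrophil receptor Cxcr2. It stood at 2.81, 3, 3.24 and 2.87 CPM in the BSA libraries and at 29.5, 28.8, 32.5 and 26.9 CPM with IL-1β. Palmitate libraries held 566, 592, 577 and 594 CPM, and those with both agents held 669, 637, 568 and 646 CPM. BSA, IL-1β and palmitate libraries formed 3 separate steps, and those with both agents overlapped those with palmitate. IL-1β raised Cxcl5 by 3.31 on the log2 scale in BSA and changed it by 0.11 in palmitate (adjusted p = 0.152), an interaction of -3.20 (standard error 0.10, adjusted p = 1.08e-21). The level with both agents differed from the additive expectation of 609 CPM by 21 ± 20.4 CPM (SE, adjusted p = 0.825), with a 95% interval of -20.7 to 62.7 CPM.

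Cxcl1, the neutrophil chemokine also called KC, lies on chromosome 5 from 91039094 to 91040974, and Cxcl2, its close relative, on chromosome 5 from 91051730 to 91053797. Cxcl1 was at 14.6, 14.4, 12.8 and 15.4 CPM in BSA and 145, 148, 166 and 145 CPM with IL-1β. In palmitate the levels were 402, 397, 412 and 363 CPM, and with both agents 669, 630, 598 and 671 CPM. Every library with both agents lay above every other library and above the additive expectation of 530 CPM. The departure was 112 ± 19.3 CPM (SE, adjusted p = 0.00098), and the log2 interaction -2.69 (standard error 0.08, adjusted p = 1.58e-21). Cxcl2 was at 0.15 ± 0.0259, 5.33 ± 0.264, 5.23 ± 0.963 and 13.6 ± 2.21 CPM in BSA, IL-1β, palmitate and both. Its log2 interaction was -3.79 (standard error 0.40, adjusted p = 8.67e-11), and its departure of 2.98 ± 0.838 CPM (SE, adjusted p = 0.0926) did not pass the threshold. Cxcl3 was at 0.0296, 0, 0 and 0 CPM in the BSA libraries and at 0.589 to 1.33 CPM with both, so no fold is given.

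Promoters of Cxcl1 and Cxcl2 are shown for their paired matches to the κB motif, which NF-κB binds, and those of the NRF2 target genes Txnrd1 and Gclm for their match to the antioxidant response element (ARE), which NRF2 binds. The letters searched were GGG and TTTCC with any 2 bases between them for κB and TGACNNNGC for the ARE, on both strands, from 250 bases before to 50 after each RefSeq start site, and the matches shown do not overlap. Each window ends at the base before the start site and reads 5′ to 3′ on the plus strand of GRCm38.p6, with the matches in capitals. Cxcl1 is at chr5:90891125-90891244, Cxcl2 at chr5:90903779-90903898, Txnrd1 at chr10:82859086-82859205 and Gclm at chr3:122245418-122245556.
Cxcl1: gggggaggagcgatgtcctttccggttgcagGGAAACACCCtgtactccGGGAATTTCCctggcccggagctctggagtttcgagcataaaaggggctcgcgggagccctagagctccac
Cxcl2: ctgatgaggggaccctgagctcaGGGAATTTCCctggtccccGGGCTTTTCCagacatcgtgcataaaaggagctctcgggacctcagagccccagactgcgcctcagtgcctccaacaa
Txnrd1: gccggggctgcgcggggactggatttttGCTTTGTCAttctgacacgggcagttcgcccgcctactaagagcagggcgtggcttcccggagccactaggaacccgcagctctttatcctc
Gclm: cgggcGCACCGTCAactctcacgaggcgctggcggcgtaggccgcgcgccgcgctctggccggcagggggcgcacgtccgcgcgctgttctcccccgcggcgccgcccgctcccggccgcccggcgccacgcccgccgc
The κB matches begin 89 and 71 bases before the start site in Cxcl1 and 97 and 78 bases before it in Cxcl2. The ARE match begins 92 bases before the start site in Txnrd1 and 134 bases before it in Gclm.

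Over all 32851 RefSeq promoters of this length, 1.63% held a κB match and 12.4% an ARE match, and over the 13907 promoters found for tested genes 1.73% and 14.2%. A promoter was found for 214 of the 298 genes with a negative interaction, and of their 280 promoters 10.4% held a κB match and 12.9% an ARE match. The 106 promoters found for 84 of 112 genes below addition held κB in 11.3% and ARE in 6.6%. The 43 promoters found for 36 of 46 genes above addition held κB in 4.65% and ARE in 23.3%. In the list of NF-κB subunits and inhibitors, 9 of 30 promoters held κB, and in the list of NRF2 targets 12 of 30 held an ARE. A match is a description of these letters and says nothing of binding in these cells.

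The other chemokines and the adhesion molecules had the same negative sign wherever an interaction was called. This held for all 5 tested interferon-type and homeostatic CXC chemokines, for 7 of 11 CC and CX3C chemokines and for 3 of 8 adhesion molecules. The share over all tested genes was 1.83%. Cxcl10, a ligand of Cxcr3, a chemokine receptor of T cells, was at 1.94 ± 0.59, 15.5 ± 1.8, 54.6 ± 4.94 and 67.4 ± 18.5 CPM in BSA, IL-1β, palmitate and both. Its log2 interaction was -2.71 (standard error 0.35, adjusted p = 0.000292), and its departure from addition -1.18 ± 7 CPM (SE, adjusted p = 0.98). Cxcl9, a second ligand of that receptor, was at or under the floor in BSA, at 0.0296, 0.0323, 0 and 0 CPM, and stood at 9.23, 9.5, 8.3 and 9.78 CPM with palmitate and 8.75, 8.97, 8.84 and 12.9 CPM with both, so no fold is given. Cxcl11 was at 0 in every BSA library. Ccl5, which attracts T cells, was at 0.342 ± 0.166, 2.3 ± 0.606, 43.2 ± 2.77 and 40.6 ± 3.44 CPM in the same order, with an interaction of -2.87 (standard error 0.33, adjusted p = 3.46e-07).

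Several of these genes stayed below the sum. Ccl7, a monocyte chemokine, was at 20.7 ± 1.55, 76.1 ± 5.34, 205 ± 7.19 and 212 ± 8.59 CPM in BSA, IL-1β, palmitate and both. It was below addition, with a departure of -47.7 ± 7.28 CPM (SE, adjusted p = 0.000207). Cx3cl1, the membrane-bound chemokine fractalkine, was at 320 ± 6.7 CPM with palmitate and 305 ± 17.5 with both, and its departure was -52.6 ± 10 CPM (SE, adjusted p = 0.0033). Ccl9 was the third member of its list below addition. Ccl2, the main monocyte chemokine, had a log2 interaction of -2.31 (standard error 0.15, adjusted p = 4.13e-07), but its departure of -49.1 ± 26.3 CPM (SE, adjusted p = 0.613) did not pass.

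Icam1, the adhesion molecule that leukocyte integrins bind, was at 1.36, 0.969, 0.725 and 1.71 CPM in BSA and 12.5, 12.6, 13.5 and 14.4 CPM with IL-1β. With palmitate it was at 109, 109, 110 and 112 CPM, and with both agents at 130, 125, 125 and 111 CPM. The last 2 conditions overlapped and stood far above the others. The log2 interaction was -3.29 (standard error 0.16, adjusted p = 1.19e-15), and the departure was 1.1 ± 4.81 CPM (SE, adjusted p = 0.971), with a 95% interval of -8.79 to 11 CPM.

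Vcam1, another integrin ligand, differed from Icam1 in its place against the sum. It was at 44.7, 41.3, 42 and 49.4 CPM in BSA and 145, 139, 153 and 147 CPM with IL-1β. Palmitate libraries held 575, 575, 571 and 547 CPM, and those with both agents held 602, 597, 597 and 559 CPM. All 4 libraries with both agents lay below the additive expectation of 669 CPM. The departure was -80.5 ± 18.8 CPM (SE, adjusted p = 0.0241), a call that was lost without palmitate replicate 9, 10 or 11 or palmitate + IL-1β replicate 16, and the log2 interaction was -1.67 (standard error 0.07, adjusted p = 7.75e-18).

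**Figure D2:**
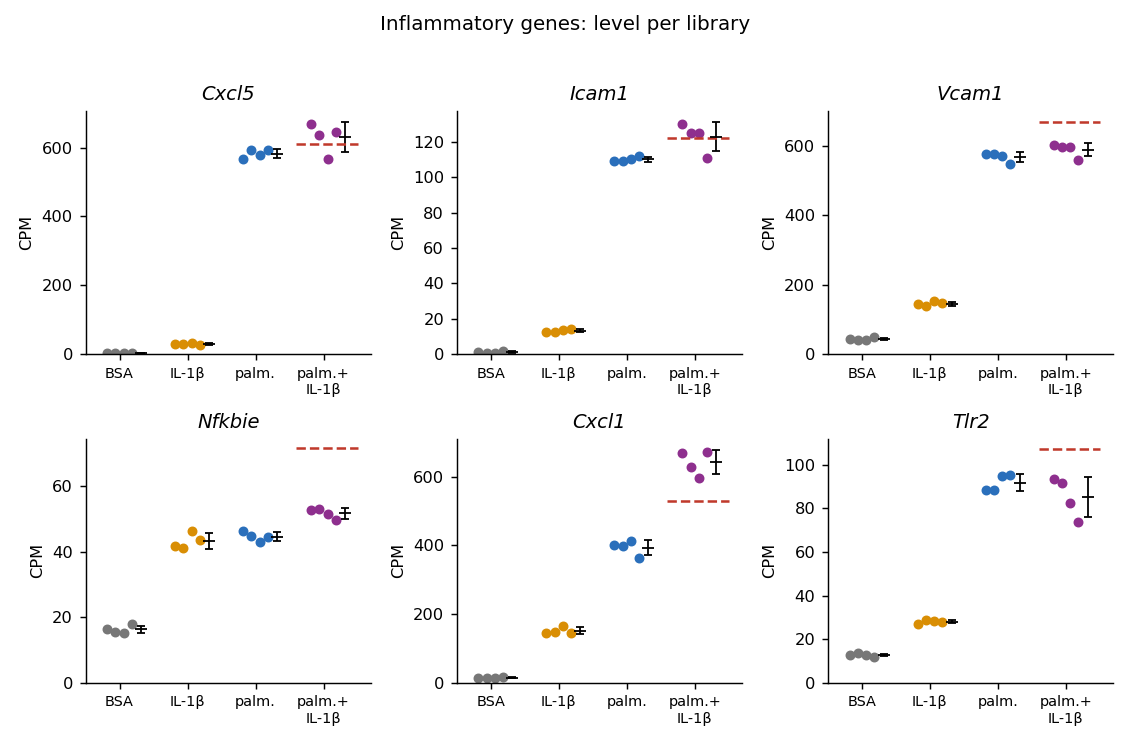
Level in CPM (vertical axis, from 0) of 6 inflammatory genes in each library, by condition (palm. stands for palmitate). Points are libraries, black marks the mean ± SD of 4 libraries, and the red dashed line the additive expectation, which all 4 libraries with both agents exceed in Cxcl1 and stay under in Vcam1, Nfkbie and Tlr2.

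The NF-κB subunits and their feedback inhibitors were the list with the most members below addition. Of 26 tested, palmitate raised 23 and IL-1β 23, against 19.8% and 10.1% of all tested genes. A negative log2 interaction was called in 14 and a positive one in none, and 10 were below addition and none above, against 1.83% and 0.687% of all tested genes. Among the 1187 genes that each agent raised alone, 253 had a negative interaction and 73 were below addition. The list median was -0.59 on the log2 scale and -11.9% of the expectation, beside 0 and 0.67% over all tested genes. The 10 below addition were Nfkbia, Nfkbie, Nfkb2, Relb, Bcl3, Tnfaip2, Tnfaip3, Tnip1, Traf3 and Zc3h12a. Nfkbia encodes IκBα, which holds NF-κB in the cytoplasm, Tnfaip3 encodes the ubiquitin-editing enzyme A20, and Zc3h12a encodes Regnase-1, which degrades cytokine mRNA.

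Nfkbie, which encodes the inhibitor IκBε, was at 16.5, 15.4, 15.3 and 17.8 CPM in BSA and 41.8, 41, 46.4 and 43.6 CPM with IL-1β. In palmitate the levels were 46.3, 44.6, 42.9 and 44.4 CPM, and with both agents 52.7, 53, 51.5 and 49.5 CPM. The libraries with both agents were above all others, yet below the sum of 71.5 CPM. The departure was -19.8 ± 2.06 CPM (SE, adjusted p = 8.79e-07), and the log2 interaction was -1.20 (standard error 0.07, adjusted p = 3.29e-13). Nfkbia was at 16.8 ± 0.982, 46.8 ± 2.85, 75.1 ± 1.61 and 87.7 ± 1.8 CPM in BSA, IL-1β, palmitate and both, with a departure of -17.5 ± 2.85 CPM (SE, adjusted p = 0.000476). Tnfaip3 was at 8.08 ± 0.506, 26.8 ± 2.4, 35.3 ± 0.57 and 42 ± 1.73 CPM in the same order, with a departure of -12.1 ± 1.71 CPM (SE, adjusted p = 1e-04). Zc3h12a was no higher in the mean with both agents, at 46.2 ± 2.75 CPM, than with palmitate, at 47.2 ± 2.38 CPM. The departure of Relb, an NF-κB subunit, of -8.12 ± 1.89 CPM (SE, adjusted p = 0.023) was lost under 9 of 23 alternatives.

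Among receptors and cytokines fewer members were called, beside 1.83% negative and 0.687% below addition over all tested genes. Of 21 tested IL-1 and Toll-like receptor components, 3 had a negative interaction (Tlr2, Il1rl1 and Map3k8), with a list median of -0.02. Tlr2, the receptor for bacterial lipoproteins, was at 12.7 ± 0.613, 28 ± 0.765, 91.8 ± 3.73 and 85.2 ± 9.14 CPM in BSA, IL-1β, palmitate and both, with a departure of -21.7 ± 3.49 CPM (SE, adjusted p = 0.000455), and limma on CPM did not call it. Of 15 interleukins and colony-stimulating factors, 4 had a negative interaction (Csf1, Lif, Il15 and Il1rn). Csf1, the growth factor of macrophages, was at 238 ± 2.92, 612 ± 20.2, 858 ± 2.51 and 1170 ± 37.3 CPM in the same order. Its interaction was -0.91 (standard error 0.05, adjusted p = 1.23e-13) and its departure -61.2 ± 29.8 CPM (SE, adjusted p = 0.53), which did not pass. Il6, at 7.97 ± 0.96 CPM with palmitate and 9.35 ± 0.981 CPM with both, passed neither test, with an interaction of -0.84 (standard error 0.27, adjusted p = 0.121). Il1rn, the IL-1 receptor antagonist, was in no library with both agents higher than in any with palmitate, and its departure of -2.18 ± 0.553 CPM (SE, adjusted p = 0.047) was lost under 13 of 23 alternatives.

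Palmitate raised nearly every tested gene of the interferon-responsive lists, and IL-1β raised fewer. Of all tested genes palmitate raised 19.8% and IL-1β 10.1%, and 1.83% had a negative interaction. Of 40 antiviral interferon-stimulated genes, palmitate raised 39 and IL-1β 10, and 5 had a negative interaction (Irf1, Dtx3l, Parp14, Parp9 and Rigi). Irf1, a transcription factor of the interferon response, was the member below addition, at 44 ± 2.93 CPM with palmitate and 49.4 ± 0.647 with both, and its departure was -12.5 ± 1.89 CPM (SE, adjusted p = 0.000199). Of 17 guanylate-binding proteins and immunity-related GTPases, which attack vacuoles that hold microbes, palmitate raised 17 and IL-1β 11. A negative interaction was called in 7 of them, and 0 departed from addition by the moderated test or by limma on CPM, with 0 at an unadjusted p under 0.05. Gbp5 was at 0.879 ± 0.208, 7.72 ± 0.896, 93.6 ± 6.04 and 102 ± 11.9 CPM in BSA, IL-1β, palmitate and both, an interaction of -3.01 (standard error 0.21, adjusted p = 4.69e-10). Its departure was 1.27 ± 4.88 CPM (SE, adjusted p = 0.967). Tgtp1 was at 0.152 ± 0.0854, 1.13 ± 0.303, 9.7 ± 0.568 and 10.5 ± 2.85 CPM in BSA, IL-1β, palmitate and both. Its interaction of -2.76 (standard error 0.51, adjusted p = 0.000305) rests on a BSA level near the floor. Reads that align to several places were not counted in families of close copies such as these.

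Of 21 tested genes of MHC class I presentation and the immunoproteasome, 6 had a negative interaction (H2-K1, Tapbp, Psmb8, Psmb10, Psme2 and Erap1). Over all tested genes 1.83% were negative and 0.687% below addition. Psme2, a proteasome activator subunit, was the member below addition, with a departure of -14.3 ± 3.13 CPM (SE, adjusted p = 0.0131) that was lost without palmitate replicate 10 and with limma on CPM. Of 16 complement and acute-phase genes, 5 had a negative interaction (C3, Ptx3, Saa3, Serpina3i and Lbp). C3, the central complement protein, was at 18 ± 1.39, 58.5 ± 3.79, 418 ± 18.5 and 454 ± 13.4 CPM in BSA, IL-1β, palmitate and both, beside an additive expectation of 459 CPM. Saa3, an acute-phase protein, was at 23.2 ± 2.24 CPM with palmitate and 22.9 ± 1.64 with both, and its BSA mean of 0.0835 ± 0.0659 CPM was under 3 counts, so no fold is given. Ptx3, a soluble pattern receptor, was below addition, with a departure of -25.1 ± 5.01 CPM (SE, adjusted p = 0.00499).

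Nos2, the inducible nitric oxide synthase, was at 0.0861 ± 0.109, 1.07 ± 0.14, 34.7 ± 3.46 and 36.1 ± 0.955 CPM in the 4 conditions in the same order. Its BSA mean was under 3 counts, so no fold is given, and its departure from addition was 0.217 ± 1.97 CPM (SE, adjusted p = 0.988). With Slc7a2 and Gch1 it made 3 of 11 nitric oxide and arginine genes with a negative interaction, against 1.83% of all tested genes. The moderated test and limma on CPM called 0 departures in that list, with 1 at an unadjusted p under 0.05.

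Every departure from addition called among the NRF2 targets was above the sum. Of 29 tested, palmitate raised 22 and IL-1β 19, against 19.8% and 10.1% of all tested genes. In this list 6 were called above addition and none below, against 0.282% and 0.687% of all tested genes. A further 10 had a level below the expectation without a call. Among the 1187 genes that each agent raised alone, 20 were above addition and 73 below. Limma on CPM called 3 departures in the NRF2 list. On the log2 scale 7 had a negative interaction and none a positive one, with a median of -0.11. The 6 above addition were Hmox1, Srxn1, Slc7a11, Txnrd1, Prdx6 and Gsta4.

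Hmox1, the oxygenase that splits heme into biliverdin, iron and carbon monoxide, lies on chromosome 8 from 75820241 to 75827217 (GRCm39). It was at 471, 411, 426 and 446 CPM in BSA and 883, 968, 951 and 885 CPM with IL-1β. With palmitate it was at 811, 826, 825 and 789 CPM, and with both agents at 1505, 1618, 1720 and 1606 CPM. Every library with both agents exceeded the additive expectation of 1296 CPM, and IL-1β libraries lay above palmitate libraries. The departure was 316 ± 47.3 CPM (SE, adjusted p = 0.000176), and the log2 interaction was -0.08 (standard error 0.07, adjusted p = 0.745). IL-1β raised Hmox1 by 1.07 on the log2 scale in BSA and by 0.99 in palmitate.

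Srxn1, sulfiredoxin, which restores oxidised peroxiredoxins, was at 148, 154, 166 and 155 CPM in BSA and 368, 394, 414 and 400 CPM with IL-1β. Palmitate libraries held 463, 460, 457 and 418 CPM, and those with both agents held 848, 923, 892 and 842 CPM. No condition overlapped another, and all 4 libraries with both agents lay above the sum of 688 CPM. The departure was 189 ± 24.4 CPM (SE, adjusted p = 2.91e-05), while the log2 interaction was -0.38 (standard error 0.07, adjusted p = 0.000458), so the level was above the sum and below the product. Prdx6, a peroxiredoxin, was at 113 ± 4.32, 194 ± 4.59, 178 ± 7.15 and 329 ± 17.6 CPM in BSA, IL-1β, palmitate and both, with a departure of 71 ± 9.3 CPM (SE, adjusted p = 2.91e-05).

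Slc7a11, which imports cystine for glutathione synthesis, was at 49 ± 4.36, 258 ± 22.4, 382 ± 17.8 and 762 ± 89.1 CPM in BSA, IL-1β, palmitate and both. The libraries with both agents ranged from 691 to 892 CPM beside an additive expectation of 591. The departure of 171 ± 34.3 CPM (SE, adjusted p = 0.0195) was lost without palmitate + IL-1β replicate 14 and with limma on CPM. Txnrd1, a thioredoxin reductase, was at 797 ± 25.3 CPM with both beside a sum of 710, and its departure of 87 ± 20.3 CPM (SE, adjusted p = 0.0238) was lost under 9 of 23 alternatives. Gclm, the modifier subunit of the enzyme that starts glutathione synthesis, was at 386 ± 8.04 CPM with both, and its departure of 33.7 ± 10.6 CPM (SE, adjusted p = 0.165) did not pass. Nqo1, a quinone reductase, was at 540 ± 34.2 CPM with both beside a sum of 531 and passed neither test (adjusted p = 0.965 for the interaction). Nfe2l2 itself had an interaction of -0.32 (standard error 0.08, adjusted p = 0.0475), lost under 16 of 25 alternatives.

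Outside this list, Ptgs2, the inducible cyclooxygenase of prostaglandin synthesis, was at 121 ± 10.1, 257 ± 12.4, 191 ± 1.34 and 384 ± 17.1 CPM in BSA, IL-1β, palmitate and both. Its departure of 55.8 ± 12.3 CPM (SE, adjusted p = 0.0136) was lost without palmitate + IL-1β replicate 14 and with limma on CPM. It was the only one of 13 prostaglandin genes to depart from addition, against 0.969% of all tested genes. On the log2 scale edgeR, DESeq2 and limma-voom called 0 of the 13, with 1 at an unadjusted p under 0.05.

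**Figure D3:**
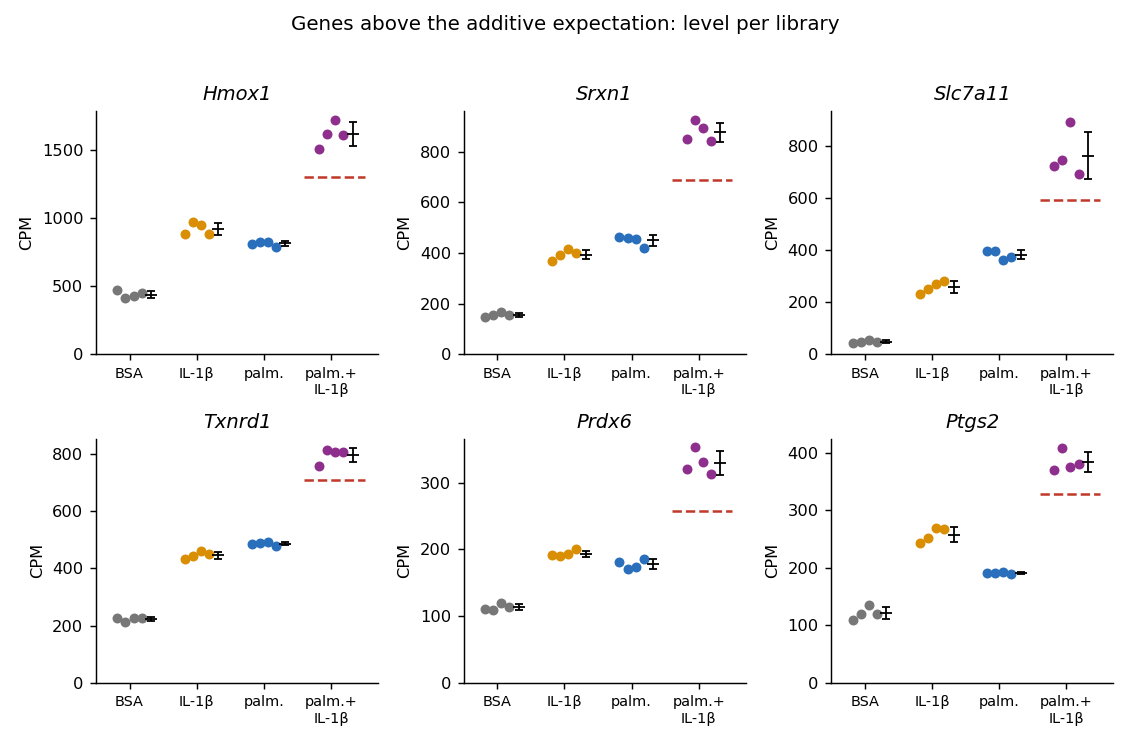
Level in CPM (vertical axis, from 0) of 6 genes above addition in each library, by condition (palm. stands for palmitate). Points are libraries, black marks the mean ± SD of 4 libraries and the red dashed line the additive expectation, above which all 4 Hmox1 libraries with both agents lie (1505 to 1720 CPM).

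Palmitate lowered and IL-1β raised most of the fatty acid-responsive and PPAR target genes. Of 31 tested, palmitate lowered 21 and raised 4, and IL-1β raised 17 and lowered 2. Over all tested genes palmitate lowered 17.5% and raised 19.8%, and IL-1β raised 10.1% and lowered 4.97%. In the list a positive log2 interaction was called in 2 and a negative one in 1, against 0.159% and 1.83% of all tested genes. Above addition were 3 and below it 1, against 0.282% and 0.687%. Cpt1a, which brings fatty acids into mitochondria for oxidation, was at 110, 110, 114 and 113 CPM in BSA and 207, 216, 227 and 216 CPM with IL-1β. In palmitate the levels were 82.7, 86.2, 83.8 and 76.7 CPM, and with both agents 217, 215, 222 and 204 CPM. Palmitate libraries lay below all BSA libraries, whereas those with both agents overlapped those with IL-1β alone. The log2 interaction was 0.42 (standard error 0.06, adjusted p = 1.59e-05). The departure of 27.2 ± 6.92 CPM (SE, adjusted p = 0.048) was lost under 19 of 23 alternatives.

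Plin2, which coats lipid droplets, showed the same order of levels, at 62.5 ± 0.764, 84.4 ± 5.6, 50.2 ± 2.36 and 83.8 ± 2.72 CPM in BSA, IL-1β, palmitate and both, with an interaction of 0.30 (standard error 0.07, adjusted p = 0.00776). Angptl4, a secreted inhibitor of lipoprotein lipase, was raised by each agent and stood at 4.44 ± 1.35, 100 ± 3.4, 20.7 ± 2.67 and 154 ± 5.9 CPM. Its interaction was -1.65 (standard error 0.18, adjusted p = 3.87e-05), and its departure of 36.7 ± 8.69 CPM (SE, adjusted p = 0.073) did not pass. Pdk4, the kinase that shuts off pyruvate dehydrogenase, was at 32.8 ± 1.9, 92.5 ± 5.82, 40.8 ± 1.19 and 121 ± 5.39 CPM in the same order, with a departure of 20.2 ± 3.8 CPM (SE, adjusted p = 0.00286) that was lost with limma on CPM.

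Fabp5, a fatty acid chaperone, was lowered by each agent, to 210 ± 6.55 CPM with IL-1β and 195 ± 6.81 with palmitate from 277 ± 25.2, and was at 177 ± 9.12 with both. Its departure of 49.3 ± 11 CPM (SE, adjusted p = 0.0154) was lost without BSA replicate 1 or 4 and with limma on CPM. Its log2 interaction of 0.26 (adjusted p = 0.0536) did not pass.

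The remaining lipid lists held no call by edgeR. Of 25 genes of cholesterol synthesis and uptake, IL-1β lowered 18 and palmitate 4, against 4.97% and 17.5% of all tested genes. In that list edgeR, DESeq2 and limma-voom called 0 interactions, with 6 at an unadjusted p under 0.05, and the moderated test and limma on CPM called 0 departures, with 6 at an unadjusted p under 0.05. Of 19 genes of fatty acid synthesis and desaturation, edgeR called 0 interactions, DESeq2 1 and limma-voom 1, with 6 at an unadjusted p under 0.05. In these 19 both tests of addition called 0 departures, with 5 at an unadjusted p under 0.05.

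The 10 most positive interactions, among called genes at an average log2 CPM of at least 1, included those of Arhgap20, Sox8, Tent5c, Calr3, Itga2b, Fam13a, Ttll3, Gm12669 and Cdc42ep3. Arhgap20, a GTPase-activating protein, lies on chromosome 9 from 51676602 to 51765342 (GRCm39). It was at 6.93, 8.34, 8.05 and 7.79 CPM in BSA and 7.65, 7.81, 7.44 and 8.53 CPM with IL-1β. With palmitate it was at 3.89, 5.15, 4.41 and 4.6 CPM, and with both agents at 10.3, 10.7, 10.6 and 10.1 CPM. Palmitate libraries were the lowest and those with both agents the highest, without overlap. IL-1β changed it by 0.02 on the log2 scale in BSA (adjusted p = 0.939) and raised it by 1.17 in palmitate (adjusted p = 4.55e-11). The interaction was 1.15 (standard error 0.13, adjusted p = 1.89e-07), and the departure 5.7 ± 0.687 CPM (SE, adjusted p = 9.47e-06).

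Sox8, an HMG-box transcription factor, was at 1.52 ± 0.134, 2.19 ± 0.334, 1.18 ± 0.0924 and 3.67 ± 0.267 CPM in BSA, IL-1β, palmitate and both, an interaction of 1.12 (standard error 0.22, adjusted p = 0.00192). Fam13a was at 1.57 ± 0.258, 3.03 ± 0.216, 2.97 ± 0.239 and 8.93 ± 0.542 CPM in the same order, above both the sum and the product. Its departure was 4.55 ± 0.509 CPM (SE, adjusted p = 3.04e-06), while its interaction of 0.66 (standard error 0.18, adjusted p = 0.0423) was lost under 13 of 25 alternatives. Cdc42ep3, an effector of the switch protein Cdc42, was lowered by palmitate to 27.6 ± 1.47 CPM from 42.7 ± 1.55 and was at 39.5 ± 2.47 with both, an interaction of 0.48 (standard error 0.07, adjusted p = 5.9e-05). Itga2b, an integrin subunit that each agent lowered, was at 6.12 ± 0.61, 4.47 ± 0.216, 3.8 ± 0.227 and 4.48 ± 0.507 CPM in BSA, IL-1β, palmitate and both, an interaction of 0.70 (standard error 0.15, adjusted p = 0.00692). The calls of Tent5c, Calr3, Ttll3 and Gm12669 were lost under 10, 13, 11 and 15 of the alternatives, for interactions of 0.80, 0.78, 0.63 and 0.50.

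Some genes that palmitate raised stood lower again when IL-1β was added. Ccn2, a matricellular protein of the TGF-β response, was at 192, 196, 206 and 206 CPM in BSA and 189, 183, 182 and 209 CPM with IL-1β. Palmitate libraries held 256, 243, 254 and 250 CPM, and those with both agents held 181, 186, 192 and 186 CPM. Palmitate libraries stood above all others. The departure was -55.4 ± 8.94 CPM (SE, adjusted p = 0.000455), and the difference of both from palmitate was -0.43 on the log2 scale (adjusted p = 1.6e-08). Cxcl12, the homeostatic chemokine that retains leukocytes in tissues, was at 69.3 ± 4.11, 71.9 ± 2.42, 116 ± 4.23 and 86.1 ± 9.2 CPM in BSA, IL-1β, palmitate and both, with a departure of -33 ± 4.84 CPM (SE, adjusted p = 0.000176). Lrrc32, which holds latent TGF-β at the cell surface and was chosen after its values were seen, was at 59.3 ± 2.39, 70.6 ± 2.11, 128 ± 2.36 and 93.6 ± 2.84 CPM, with a departure of -46.1 ± 3.7 CPM (SE, adjusted p = 3.47e-09).

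**Figure D4:**
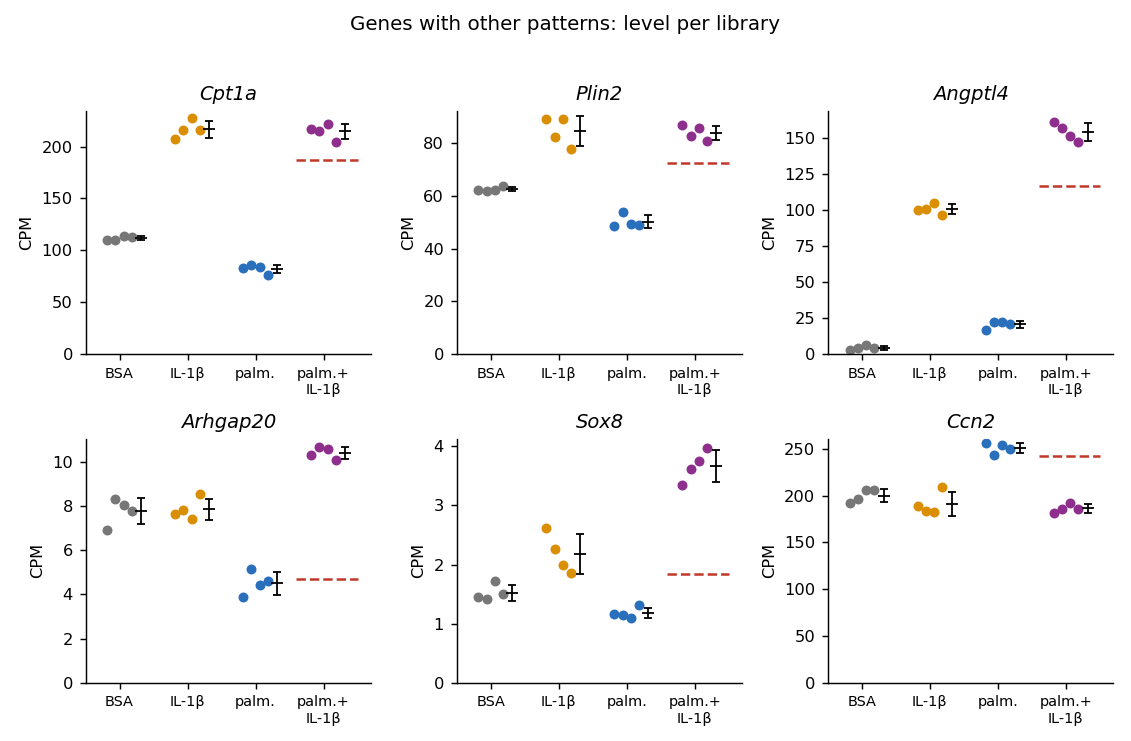
Level in CPM (vertical axis, from 0) of 6 genes with other patterns in each library, by condition (palm. stands for palmitate). Points are libraries, black marks the mean ± SD of 4 libraries and the red dashed line the additive expectation. Palmitate alone gives the lowest levels of Arhgap20 (3.89 to 5.15 CPM) and the highest of Ccn2 (243 to 256 CPM).

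The departures below addition that were largest in CPM included matrix genes. Tnc, the matrix protein tenascin C, was at 1012 ± 66.4, 1348 ± 56.4, 1366 ± 94 and 1403 ± 91.3 CPM in BSA, IL-1β, palmitate and both. Each agent raised it, the libraries of those 3 conditions overlapped each other, and the departure of -299 ± 67.1 CPM (SE, adjusted p = 0.0185) was lost without palmitate replicate 9 or 10 or palmitate + IL-1β replicate 13 or 16 and with limma on CPM. Slc6a6, the taurine transporter, was raised by IL-1β in BSA, to 405 ± 10 CPM from 322 ± 15.6, and was at 322 ± 6.37 with palmitate and 343 ± 14.1 with both. Its departure of -62.7 ± 14.5 CPM (SE, adjusted p = 0.022) was lost under 9 of 23 alternatives. Pxdn, a peroxidase that crosslinks collagen, had a departure of -66.1 ± 16.1 CPM (SE, adjusted p = 0.0331) that was lost under 14 of 23 alternatives. Of 23 collagen chains, edgeR, DESeq2 and limma-voom called 0 interactions and both tests of addition 0 departures, with 1 gene at an unadjusted p under 0.05 on each scale.

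Of 45 cell cycle and DNA replication genes, 5 had a negative interaction (Top2a, Kif11, Bub1b, Mcm4 and Rrm2) and 4 of these, all but Rrm2, were below addition. The shares over all tested genes were 1.83% and 0.687%. The list median was -10.1% of the expectation, and 18 members had an unadjusted p under 0.05 against addition, but limma on CPM called 0. Top2a, the topoisomerase of dividing cells, was at 137 ± 5, 156 ± 6.04, 155 ± 13.8 and 140 ± 6.64 CPM in BSA, IL-1β, palmitate and both, with a departure of -35.1 ± 7.37 CPM (SE, adjusted p = 0.00858).

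Of 12 mitochondrially encoded protein genes, 10 had a log2 interaction below 0 and 10 a level below the additive expectation. Over all 16306 tested genes these counts were 8246 and 7642. The list medians were -0.18 and -10.3% of the expectation, beside 0 and 0.67% over all tested genes. Among these genes mt-Co1 alone had a call, on both scales. It encodes a core subunit of cytochrome c oxidase and was at 6660, 6738, 6607 and 6829 CPM in BSA and 7408, 6688, 6455 and 6808 CPM with IL-1β. In palmitate the levels were 7097, 6398, 6382 and 6762 CPM, and with both agents 5344, 5930, 5369 and 5656 CPM. The libraries with both agents lay below all others, which overlapped each other. The interaction was -0.28 (standard error 0.06, adjusted p = 0.00865), and the departure of -1216 ± 286 CPM (SE, adjusted p = 0.025) was lost without BSA replicate 1 or IL-1β replicate 5 or palmitate replicate 9 or 12 or palmitate + IL-1β replicate 13 and with upper-quartile normalization and with limma on CPM. Mitochondrial genes as a whole took 10.7% to 11.5% of the counts with both agents, 12.2% to 13.4% with BSA, 11.4% to 14% with IL-1β and 11.9% to 13.2% with palmitate. The listed protein genes were a small part of this, at 0.911% to 1.08% with both agents and 0.968% to 1.18% with BSA. They took 0.965% to 1.31% with IL-1β and 1.07% to 1.18% with palmitate, so the range with both agents overlapped each of the others. With mitochondrial and ribosomal RNA genes left out of the library totals, the interaction of mt-Co1 was -0.29 (adjusted p = 0.00952). In the same setting mt-Co2, mt-Atp6 and mt-Co3 departed from addition by -0.245, -0.117 and -0.203 CPM, so their signs say little. Copies of mt-Co1 in the nuclear genome make its count uncertain.

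The lists of nuclear-encoded respiratory chain, ribosomal protein, ER chaperone and histone genes held no call. In 66 nuclear-encoded respiratory chain and ATP synthase genes, edgeR, DESeq2 and limma-voom called 0 interactions and both tests of addition 0 departures, with 0 at an unadjusted p under 0.05 on either scale. The same was so for 86 cytosolic ribosomal proteins, 29 ER chaperones and stress sensors and 56 replication-dependent histones, where 3, 1 and 3 genes had an unadjusted p under 0.05 for the interaction and 1, 2 and 3 for the departure. Of 18 superoxide dismutases, peroxidases and metallothioneins, edgeR called 0 interactions, DESeq2 2 and limma-voom 1, with 3 at an unadjusted p under 0.05. Both tests of addition called 0 of these 18, with 1 at an unadjusted p under 0.05. Among 46 ATF4 targets and genes of amino acid supply, 2 had a negative interaction, Slc7a11 and Cebpb, and 1, Slc7a11, was above addition. The shares over all tested genes were 1.83% and 0.282%, so these counts say little about the list.

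Among 22 adenosine and AMP handling genes, 1 had a negative interaction and 1 was above addition, against 1.83% and 0.282% of all tested genes, so these counts say little about the list. Ampd3, which deaminates AMP, was at 38.1 ± 2.16, 107 ± 2.31, 171 ± 5.68 and 251 ± 6.65 CPM in BSA, IL-1β, palmitate and both, with an interaction of -0.94 (standard error 0.06, adjusted p = 8.09e-13) and a departure of 10.4 ± 6.62 CPM (SE, adjusted p = 0.683). Nt5e, which encodes the ectoenzyme Cd73 that makes adenosine from AMP, was at 23.2 ± 0.748, 18.3 ± 0.96, 10.3 ± 0.592 and 9.84 ± 1.1 CPM in the same order. Each agent lowered it, and with both it lay above the sum of 5.41 CPM, a departure of 4.44 ± 1.1 CPM (SE, adjusted p = 0.0387) that was lost under 14 of 23 alternatives. Its log2 interaction of 0.28 (adjusted p = 0.224) did not pass.

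The remaining lists had called interactions in the negative direction or none, beside 1.83% negative over all tested genes. Of 32 immediate early and stress response genes, 7 were negative (Junb, Btg2, Maff, Ier3, Klf10, Fosl1 and Jun). Junb, a subunit of the transcription factor AP-1, was at 18.3 ± 1.37, 22 ± 1.94, 31.5 ± 1.83 and 25.9 ± 0.659 CPM in BSA, IL-1β, palmitate and both, with a departure of -9.28 ± 1.54 CPM (SE, adjusted p = 0.00057). Of 18 TNF superfamily ligands and receptors, 4 were negative (Fas, Cd40, Tnfrsf9 and Tnfrsf1b) and 2 were below addition, against 0.687% of all tested genes. Tnfrsf1b had a departure of -12.6 CPM (adjusted p = 0.00413 in the moderated test), a call lost under 0 of 23 alternatives. Fas, the death receptor, had a departure of -11.2 ± 2.53 CPM (SE, adjusted p = 0.0177) that was lost without palmitate replicate 9 or 10 and with limma on CPM. Of 25 BCL2 family and cell death genes 3 were negative (Casp4, Bid and Casp8), of 22 metalloproteinases and TIMPs 3 (Mmp13, Adamts4 and Mmp3), and of 20 gp130 receptor, STAT3 and SOCS genes 1 (Osmr). In these 3 lists both tests of addition called 0 departures, with 4, 6 and 4 at an unadjusted p under 0.05. Of 24 myofibroblast and TGF-β response genes 2 were negative, Ccn2 among them. The counts of 1 of 20 and 2 of 24 say little about those lists.

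Of 13 Notch pathway genes 1 was above addition, against 0.282% of all tested genes, so this count says little about the list. The member above addition was Jag1, a Notch ligand. It was at 238 ± 4.07, 204 ± 5.3, 82.8 ± 1.65 and 78.7 ± 3.58 CPM in BSA, IL-1β, palmitate and both, with a departure of 29 ± 6.46 CPM (SE, adjusted p = 0.0156) that was lost without BSA replicate 2 or IL-1β replicate 7. EdgeR, DESeq2 and limma-voom called 0 interactions in that list, with 2 at an unadjusted p under 0.05.

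**Figure D5:**
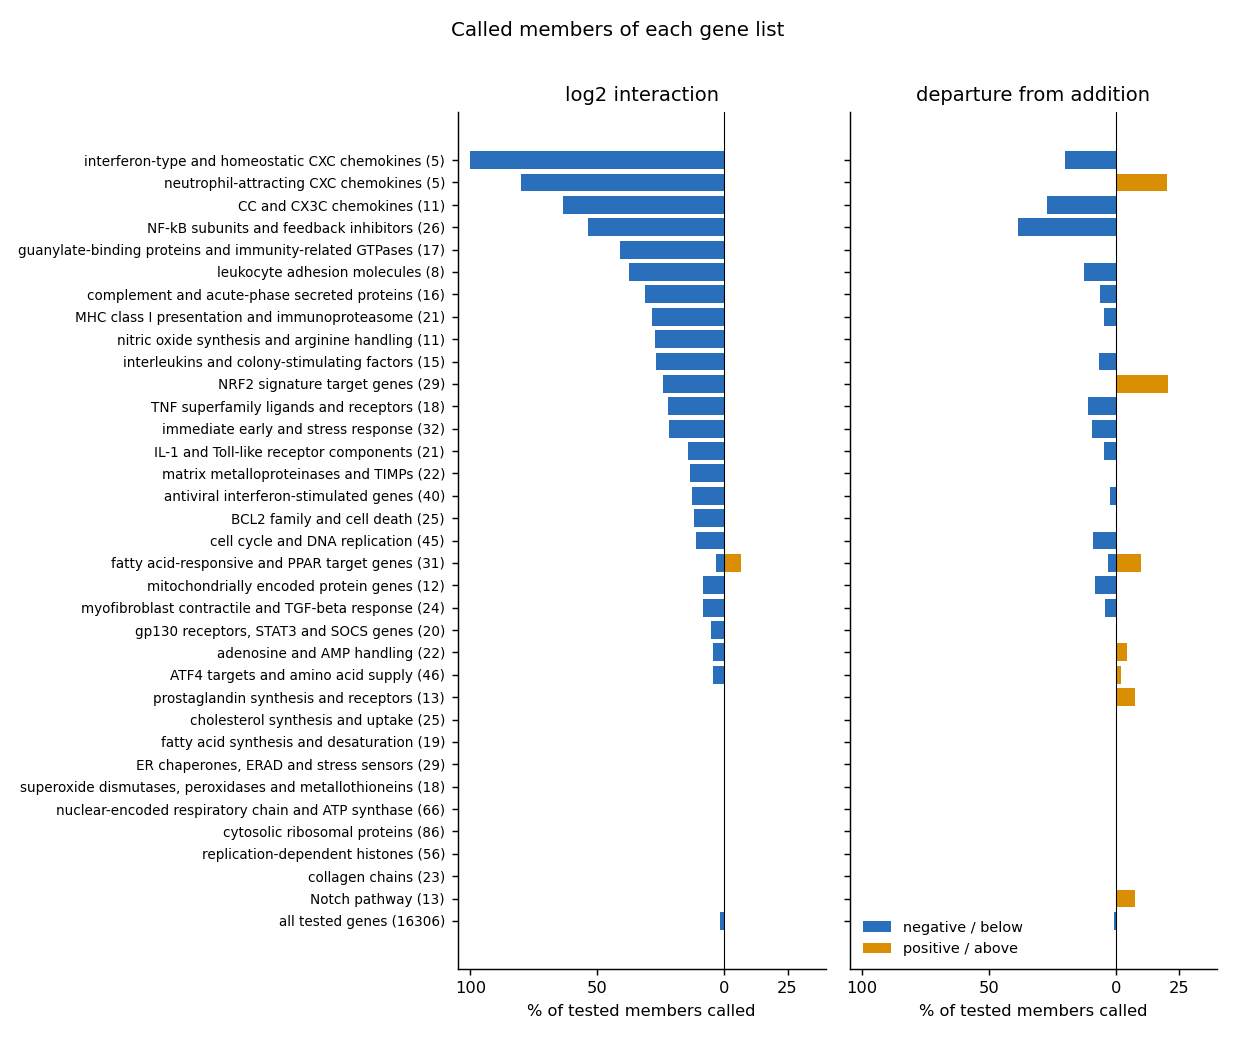
Share of the tested members of each gene list (number tested in brackets) called at an adjusted p under 0.05, in percent, by direction, for the log2 interaction and for the departure from addition. All 5 interferon-type and homeostatic CXC chemokines have a negative interaction, 10 of 26 NF-κB genes are below addition, and 6 of 29 NRF2 targets are above it.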

How the data were processed

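RNA of 16 mGF libraries was sequenced, and libraries were grouped by the treatment in their labels. Per the submitters' processing notes, the authors used Trimmomatic 0.39, STAR 2.7.10a, HTSeq 2.0.9 and GRCm39. The deposited values are raw counts per gene, counted by strand, without reads that align to several places. The 5 summary entries that name no gene were dropped. A stranded total RNA kit is given in the labels but an oligo(dT) kit in the methods, so the RNA captured is uncertain.

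Counts were fitted with edgeR 4.0.16 in R 4.3.3 (filterByExpr, TMM, robust glmQLFit, 1 mean per condition, no covariates). The log2 interaction and the simple contrasts were tested with glmQLFTest. The departure from addition was tested on the fitted means with a delta-method standard error held at or above counting error and the moderated degrees of freedom of the fit (median 30.1), called the moderated test. P-values were adjusted by Benjamini-Hochberg over the 16306 tested genes. The edgeR test of the interaction and the moderated test of the departure were also run on simulated counts, without the count filter. Those counts were drawn with the dispersions of the same fit. The outcome is not reported here, and no result rests on it. Alternatives were DESeq2 1.42.0, limma 3.58.1 (voom, or on CPM over the mean of the gene), other normalizations, filters and thresholds, and leaving out each library.

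The named genes are the 10 lowest and 10 highest interactions and the 6 lowest and 6 highest departures in CPM, among called genes with an average log2 CPM of at least 1, and in each of 34 lists up to 4 called members and those needed to describe it. Members and lists were chosen with earlier results of these data known. Of 979 listed symbols, 973 were in the table, 10 of them matched through Ensembl identifiers. Positions are from GENCODE (GRCm39) and promoters from RefSeq (GRCm38.p6). A few genes that these rules choose are not reported here.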

Additional observations from a re-analysis of the deposited data

Results flagged for a closer look

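The effect of IL-1β differed between palmitate and BSA in 324 genes, the count of called log2 interactions, which edgeR tested as the difference itself.

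Over 126 named or listed genes and 504 pairs of a gene and a condition, 23 had 1 library apart from the other 3 by Dixon's criterion, which flags about 1 in 20 by chance, or 25.2 here. The levels are in CPM. With palmitate, replicate 12 was high in Ccl5 at 47.3 and Cd44 at 1037 and low in Cxcl10 at 47.3, Vcam1 at 547 and Srxn1 at 418. Palmitate replicate 10 was high in Plin2 at 53.7, and palmitate replicate 11 was high in Zc3h12a at 50.8. With both agents, replicate 16 was high in Cxcl9 at 12.9 and Gbp3 at 114 and low in Vcam1 at 559. Replicate 15 of that condition was low in Btg2 at 28 and Psmb8 at 7.72, replicate 13 was low in Txnrd1 at 760, and replicate 14 was high in Gclm at 398. With IL-1β, replicate 7 was high in Cxcl1 at 166 and Nfkb1 at 79.9, and replicate 8 was low in Gsta4 at 61.7. With BSA, replicate 1 was low in Btg2 at 23.7 and high in Cxcl3 at 0.0296, where the other libraries held 0. BSA replicate 2 was low in Txnrd1 at 213 and Psmb8 at 0.0646, replicate 3 was low in Cx3cl1 at 34.8, and replicate 4 was high in Tgtp1 at 0.28.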

How the results depend on the processing

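No called interaction or departure of a named gene changed sign under the alternatives run, while departures without a call did, such as those of Icam1, Cxcl10, Gbp5 and Nos2. No paired analysis was possible because the groups compared share no replicate numbers. Upper-quartile normalization gave 46 positive interactions and 86 genes above addition. Without a filter on low counts there were 40 positive interactions and 255 departures, 180 below and 75 above. At an adjusted p under 0.01 there were 208 interactions, 7 of them positive, and 88 departures, 62 below and 26 above. Limma on CPM placed 69 genes below addition. DESeq2 called 367 interactions, 320 of them shared with edgeR, and limma-voom 310, with 292 shared. Leaving out 1 library at a time gave 258 to 371 interactions, 242 to 338 negative and 12 to 39 positive, and 113 to 195 departures, 73 to 141 below and 37 to 60 above. The lowest count below addition, 73, came without palmitate replicate 10, the deepest library, and the lowest count of positive interactions, 12, without IL-1β replicate 7. The causes were not tested. Of the values of single genes under settings that keep every library, 58 interactions and 53 departures lost their call and 4 and 14 gained one. The call of 1059 and 802 values did not change. These losses include those from the stricter threshold of 0.01. With 1 library left out, 175 interactions and 123 departures lost their call and 5 and 24 gained one. The call of 1836 and 1869 values did not change there. Depth limits genes near the floor in BSA, such as Cxcl9, Cxcl11, Cxcl3, Nos2, Saa3, Tgtp1 and Cxcl2.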
